A study of Mus musculus with 12 samples.

Results

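The proteasome is the protease of the cytosol and nucleus that degrades proteins tagged with ubiquitin, and its RNAs are described here in lung epithelial cells given an shRNA against a long noncoding RNA. The genes were every measured gene whose only symbol was Psma, Psmb, Psmc or Psmd with a number, without the inducible immunoproteasome genes Psmb8, Psmb9 and Psmb10. Where a gene had several probe sets, the one with the highest mean signal on the 12 arrays stood for it. This gave 35 genes of 22180 named genes, 15 of the core particle (Psma and Psmb) and 20 of the regulatory particle (Psmc and Psmd). Of the core genes 7 encode alpha and 8 encode beta subunits, and of the regulatory genes 6 encode ATPases. Psmd5, Psmd9 and Psmd10, which encode assembly chaperones, are counted with the regulatory particle by their symbols. The rule uses symbols and, for Psma5 and Psmc2, which had more than 1 probe set, brightness. The genes were chosen with earlier results of these data known.

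The cells were MLE12, a line of mouse distal lung epithelium that carries a viral large T antigen, so all results come from 1 line. There were 4 groups of 3 arrays: cells given an shRNA against NANCI, cells given a scrambled shRNA beside it, cells given an shRNA against LL34, and cells given a scrambled shRNA beside that one. All 4 groups had the lentiviral vector pLKO.1, 12 h of infection with polybrene starting at 60% confluency, and 65 h of subculture. The labels call the replicates biological and name no separate infections. The p-values then cover only how these arrays vary, which may be technical. NANCI is a noncoding RNA gene beside Nkx2-1, which encodes the homeodomain factor of lung epithelium. The comparisons ask how each knockdown moved RNA levels against the scrambled shRNA of its own set. Levels are log2 signals, where 1 unit is a factor of 2, and changes are the shRNA mean less the scrambled mean, with a standard error (SE) from a limma fit over all 41345 probe sets. A gene is said to have risen or fallen where the Benjamini-Hochberg adjusted p was at most 0.05.

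As background, the core particle is a barrel of outer alpha rings and inner beta rings. The alpha subunits gate the entry, and the beta subunits Psmb5, Psmb6 and Psmb7 carry the chymotrypsin-like, caspase-like and trypsin-like active sites. The regulatory particle caps the barrel. Its Psmc ATPases unfold the substrate, and its Psmd subunits bind ubiquitin chains, remove them or hold the lid and base together. Mammalian cells are known to raise most subunit genes together when proteasome capacity falls short, through the transcription factor encoded by Nfe2l1. That factor is made in the endoplasmic reticulum membrane, and the glycanase Ngly1 and the protease Ddi2 release its active form. It binds antioxidant response elements in subunit promoters, whose core reads TGACNNNGC, and the CCAAT box bound by NF-Y is another element described in promoters of these genes.

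The promoters of 28 of the 35 genes were in a RefSeq table of assembly GRCm38.p6, which holds 250 bases before and 50 bases after each start site. Searched on both strands, the TGACNNNGC core was found in 5 of the 28 genes, Psmb5, Psmb6, Psmc6, Psmd12 and Psmd9, or 17.9%, and in 14% of 27025 genes of the table. CCAAT was found in 12 of the 28, or 42.9%, against 41.1% of all genes. A CCAAT box cannot lie inside the core, though the motifs may overlap at their ends. Both shares lay close to those of all genes in windows of this length. The 5 promoters shown first carry the core. Of these genes Psmb5, Psmb6, Psmc6 and Psmd12 rose after NANCI knockdown and Psmd9 did not pass (−0.02). Of all 28 genes 18 rose and 10 did not pass. The core was in 4 of the 18 (22.2%) and 1 of the 10 (10%). CCAAT was in 7 of the 18 (38.9%) and 5 of the 10 (50%). A part of either motif in the changes was not tested. Both start sites of Psma6, the gene with the highest rise, follow, and then Psmd8, which differed most between the knockdowns. Capitals mark the core or a CCAAT box on either strand. All run 5′ to 3′ on the strand of the gene.
Psmb5, chr14:54617946-54618245, minus strand, core: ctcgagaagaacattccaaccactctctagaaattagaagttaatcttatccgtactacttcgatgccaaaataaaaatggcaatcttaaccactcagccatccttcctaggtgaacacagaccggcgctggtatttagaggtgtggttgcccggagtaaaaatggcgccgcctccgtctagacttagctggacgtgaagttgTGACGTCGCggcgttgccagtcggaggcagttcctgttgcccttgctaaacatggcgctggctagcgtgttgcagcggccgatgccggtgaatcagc
Psmb6, chr11:70525107-70525406, plus strand, core: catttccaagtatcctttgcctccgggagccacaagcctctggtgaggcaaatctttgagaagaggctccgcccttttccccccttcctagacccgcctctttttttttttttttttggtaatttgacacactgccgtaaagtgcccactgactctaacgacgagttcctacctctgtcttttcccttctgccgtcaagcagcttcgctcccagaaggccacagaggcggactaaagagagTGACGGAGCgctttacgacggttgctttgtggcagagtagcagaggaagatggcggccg
Psmc6, chr14:45329574-45329873, plus strand, core on the opposite strand: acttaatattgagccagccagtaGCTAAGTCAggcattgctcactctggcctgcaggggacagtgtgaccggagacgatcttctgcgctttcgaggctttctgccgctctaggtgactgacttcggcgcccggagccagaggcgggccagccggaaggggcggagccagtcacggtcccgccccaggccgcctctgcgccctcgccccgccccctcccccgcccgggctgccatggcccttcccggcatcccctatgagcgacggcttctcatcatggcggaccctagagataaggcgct
Psmd12, chr11:107479278-107479577, plus strand, core on the opposite strand: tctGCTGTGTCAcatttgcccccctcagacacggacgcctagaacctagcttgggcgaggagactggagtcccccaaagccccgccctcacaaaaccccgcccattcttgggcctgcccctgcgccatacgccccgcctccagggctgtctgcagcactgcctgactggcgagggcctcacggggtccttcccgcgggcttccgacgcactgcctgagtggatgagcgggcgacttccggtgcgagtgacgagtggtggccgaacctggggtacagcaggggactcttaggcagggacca
Psmd9, chr5:123227940-123228239, plus strand, core: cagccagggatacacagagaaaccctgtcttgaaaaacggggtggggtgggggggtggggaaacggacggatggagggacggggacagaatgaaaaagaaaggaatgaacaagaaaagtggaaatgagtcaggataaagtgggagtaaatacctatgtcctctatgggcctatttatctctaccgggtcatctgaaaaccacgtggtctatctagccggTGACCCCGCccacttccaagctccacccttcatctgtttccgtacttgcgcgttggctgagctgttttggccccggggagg
Psma6, chr12:55383972-55384271, plus strand, CCAAT on both strands: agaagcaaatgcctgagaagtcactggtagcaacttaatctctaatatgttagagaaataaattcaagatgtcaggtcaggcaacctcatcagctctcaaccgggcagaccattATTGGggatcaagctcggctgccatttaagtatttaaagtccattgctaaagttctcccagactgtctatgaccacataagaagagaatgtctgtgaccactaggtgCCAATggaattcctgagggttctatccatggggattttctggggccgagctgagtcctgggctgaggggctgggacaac
Psma6, chr12:55398575-55398874, plus strand, neither motif: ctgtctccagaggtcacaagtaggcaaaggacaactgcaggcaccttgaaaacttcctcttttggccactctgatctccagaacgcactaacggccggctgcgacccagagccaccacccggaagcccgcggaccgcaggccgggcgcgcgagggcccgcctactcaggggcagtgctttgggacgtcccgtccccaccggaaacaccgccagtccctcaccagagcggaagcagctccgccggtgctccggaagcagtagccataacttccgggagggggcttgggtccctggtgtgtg
Psmd8, chr7:29180624-29180923, minus strand, neither motif: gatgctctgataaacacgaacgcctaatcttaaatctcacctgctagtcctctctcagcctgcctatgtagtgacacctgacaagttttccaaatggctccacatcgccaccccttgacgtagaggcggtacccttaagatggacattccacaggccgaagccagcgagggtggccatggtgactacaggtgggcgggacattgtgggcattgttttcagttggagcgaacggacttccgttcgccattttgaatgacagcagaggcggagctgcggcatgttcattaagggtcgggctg

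Sfta3-ps, for which the gene table gives Nanci as a synonym, measured −2.91 (SE 0.121, limma adjusted p = 1.72e-07) after NANCI knockdown, which left 13.3% of the scrambled signal, and Nkx2-1 fell to 50.1% of its scrambled signal. The LL34 RNA was not analysed here, and LL34 knockdown below stands for cells given the LL34 shRNA. Sfta3-ps and Nkx2-1 also fell after LL34 knockdown. Sfta3-ps stood at 62.6% of its scrambled signal (limma adjusted p = 0.00284) and Nkx2-1 at 83.2% (adjusted p = 0.0327). The Nkx2-1 call was lost without any 1 LL34 shRNA array or LL34_control replicate 1 or 2. It was also lost in a fit of the 6 arrays of the set and with a replicate block (adjusted p from 0.0664 to 0.119 in these fits). Array medians lay between 6.84 and 6.88 in the NANCI set and between 6.54 and 6.61 in the LL34 set, and levels are compared mainly inside each set. Replicate arrays of a group correlated at 0.986 or higher. Of the markers of distal lung epithelium, Nkx2-1, Abca3, Cdh1 and Krt8 had mean levels of 10.18 or more, the surfactant genes Sftpb and Sftpc stood at 9.46 and 9.81, and Epcam and Krt18 at 6.47 and 6.67, near the array medians.

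Proteasome subunit RNAs were higher after NANCI knockdown in 22 of 35 genes and lower in 1, Psmd7. Over all 41345 probe sets, 10.3% were higher and 9.6% lower. The median change of the 35 genes was 0.37, and that of all 22180 named genes was 0.00. The changes ran from −0.83 to 1.02, with 30 above 0 and 5 below. In 23 genes all 3 NANCI shRNA arrays lay above all 3 scrambled arrays, which was so in 17.5% of probe sets, and in 2 genes, Psmd7 and Psmd2, all lay below (15.5% of probe sets). Bright probe sets pass the test more often, so the 26 members with a mean level of 10 or more were set beside the 3851 named genes at that level. Of these members 20 rose and 1 fell, 76.9% and 3.85%, against 30% and 26.5% of all bright genes, and the medians were 0.44 and 0.03. Array by array, the median member stood 0.39, 0.31 and 0.26 above the mean of the scrambled arrays on the 3 NANCI shRNA arrays, and the scrambled arrays themselves gave −0.00, −0.04 and 0.03. Over all named genes the same 6 medians lay between −0.01 and 0.01.

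**Figure D1:**
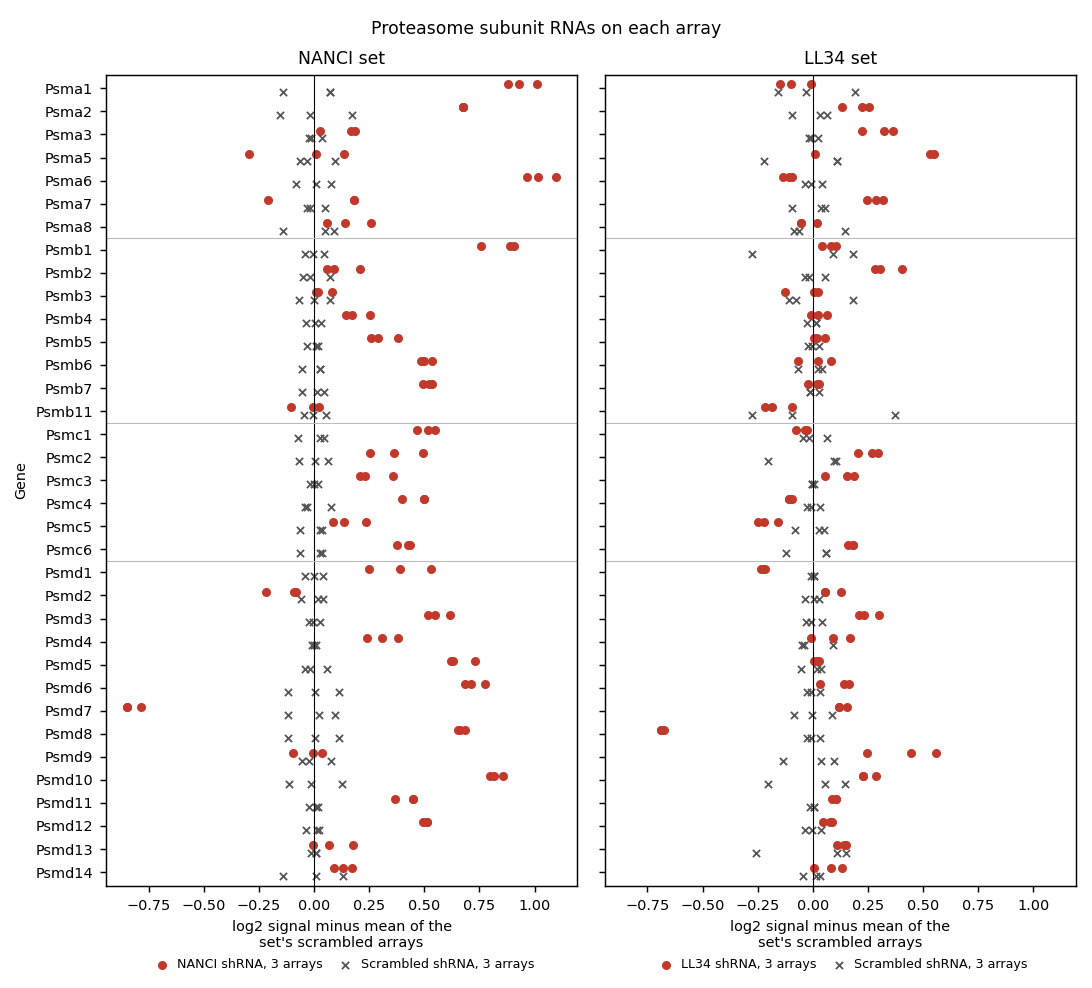
Signal of each of the 35 proteasome genes on each array as log2 signal minus the mean of the scrambled arrays of the same set, in the NANCI set (left) and the LL34 set (right). Red dots are the 3 shRNA arrays, grey crosses the 3 scrambled arrays, and lines part the Psma, Psmb, Psmc and Psmd genes. In the NANCI set 23 genes have all red dots right of all crosses and 2 have all to the left, and in the LL34 set these numbers are 15 and 5.

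In the alpha ring 3 of 7 genes rose after NANCI knockdown and none fell. Psma6 read 11.59, 11.54 and 11.67 on the NANCI shRNA arrays, against 10.49, 10.65 and 10.58 on the scrambled arrays. The groups were about 1 log2 unit apart with no overlap (1.02, SE 0.0591, limma adjusted p = 9.93e-07), a level of 203% of the scrambled one. Psma1 read 11.94, 11.86 and 11.81 on the shRNA arrays, against 11.00, 10.79 and 11.00 on the scrambled arrays. Every shRNA array was again well above every scrambled one (0.94, SE 0.0931, adjusted p = 3.17e-05). Psma2, whose product sits in the same ring, read 11.08 on all 3 shRNA arrays, against 10.25, 10.39 and 10.58 on the scrambled arrays. Its scrambled arrays were more spread than its shRNA arrays, without overlap (0.67, SE 0.0801, adjusted p = 0.000113). The other alpha genes did not pass: Psma3, Psma5 and Psma7 measured 0.13, −0.05 and 0.05, and Psma8, the variant known from testis, 0.15. Psma5, Psma8 and the beta gene Psmb11 were dimmer than the median of every array, and without these 3 genes 22 of 32 rose, with a median of 0.40.

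In the beta ring 5 of 8 genes rose and none fell, the 3 catalytic subunits among them. Psmb7, the trypsin-like site, read 11.29, 11.28 and 11.25 on the NANCI shRNA arrays, against 10.77, 10.70 and 10.80 on the scrambled arrays. Psmb6, the caspase-like site, read 10.36, 10.32 and 10.31 on the shRNA arrays, against 9.85, 9.77 and 9.85 on the scrambled arrays. Psmb5, the chymotrypsin-like site, read 12.94, 12.85 and 12.82, against 12.57, 12.53 and 12.58 on the scrambled arrays. In all 3 genes the groups stood apart without overlap. The changes were 0.52 for Psmb7 (SE 0.0486, limma adjusted p = 2.12e-05), 0.51 for Psmb6 (SE 0.0589, adjusted p = 9.29e-05) and 0.31 for Psmb5 (SE 0.051, adjusted p = 0.00107), or 143%, 142% and 124% of the scrambled signal. The widest difference of the ring was in Psmb1, a subunit without an active site. Psmb1 read 11.37, 11.35 and 11.22 on the shRNA arrays, against 10.46, 10.42 and 10.51 on the scrambled arrays (0.85, SE 0.101, adjusted p = 0.000111).

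Psmb4, also without an active site, rose by 0.19 with an adjusted p of 0.0246. That call did not hold without NANCI_control replicate 1 (0.0896) or 2 (0.0553), without NANCI_shRNA replicate 1 (0.0912), in a fit of the 6 arrays of the set (0.0935) or after quantile normalization over all arrays (0.175). Psmb2 and Psmb3 measured 0.12 and 0.04, and Psmb11, the variant known from thymus, −0.03, none past the threshold. The scrambled arrays of the LL34 set read 0.39 higher than those of the NANCI set for Psmb5 and 1.23 lower for Psmb4 (−1.23). With all 6 scrambled arrays as 1 control group, Psmb5 measured 0.114 (adjusted p = 0.502) and Psmb4 0.806 (adjusted p = 0.113).

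The ATPases that unfold substrates rose in 5 of 6 cases after NANCI knockdown, with none lower and a median of 0.39. Psmc1 read 11.33, 11.41 and 11.38 on the NANCI shRNA arrays, against 10.89, 10.79 and 10.91 on the scrambled arrays (0.51, SE 0.0558, limma adjusted p = 5.99e-05). Psmc4 read 12.31, 12.21 and 12.31, against 11.77, 11.89 and 11.78 on the scrambled arrays (0.46, SE 0.054, adjusted p = 9.54e-05). Psmc6 read 12.00, 12.05 and 12.06, against 11.65, 11.56 and 11.66 on the scrambled arrays (0.41, SE 0.0616, adjusted p = 0.000569). All shRNA arrays lay above all scrambled arrays in each of the 6 ATPase genes, Psmc5 included, which measured 0.16 and did not pass (adjusted p = 0.12). Psmc3 rose by 0.27, and by 0.43 against all 6 scrambled arrays. Psmc2 rose by 0.37 on its brighter probe set and by 0.43 on its other one. The brighter set lost its call without NANCI_control replicate 2 (adjusted p = 0.0513) or NANCI_shRNA replicate 1 (0.0624). Against all 6 scrambled arrays Psmc2 measured 0.615 (adjusted p = 0.0159) and Psmc6 0.258 (adjusted p = 0.114).

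Of the 14 Psmd genes, 9 rose, 1 fell and 4 did not pass, with a median of 0.41. Psmd10, known as gankyrin, is a chaperone that helps assemble the base and is no part of the finished particle. It read 10.49, 10.51 and 10.55 on the NANCI shRNA arrays, against 9.68, 9.58 and 9.82 on the scrambled arrays, and no array overlapped (0.82, SE 0.0891, limma adjusted p = 5.69e-05). Psmd5, another base chaperone, rose by 0.66, while Psmd9, the remaining one, measured −0.02 (adjusted p = 0.936). Psmd6, a lid subunit, read 11.33, 11.36 and 11.42 on the shRNA arrays, against 10.65, 10.53 and 10.76 on the scrambled arrays. The gap of 0.72 (SE 0.0662, adjusted p = 1.79e-05) was wider than the spread of either group. The lid genes Psmd3, Psmd8, Psmd11 and Psmd12 rose by 0.56, 0.67, 0.42 and 0.50. The ubiquitin receptor gene Psmd4 rose by 0.31, and Psmd1, a scaffold of the base, by 0.39. Against all 6 scrambled arrays Psmd4 measured 0.592 (adjusted p = 0.023) and Psmd1 0.199 (adjusted p = 0.268). The lid gene Psmd13 and Psmd14, the deubiquitinase of the lid, measured 0.08 and 0.13 and did not pass.

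Psmd7 moved against the others. It encodes the lid subunit that pairs with the deubiquitinase Psmd14. Psmd7 read 10.85, 10.91 and 10.85 on the NANCI shRNA arrays, against 11.79, 11.58 and 11.72 on the scrambled arrays. The shRNA arrays lay below the scrambled arrays without overlap, and the gene measured −0.83 (limma SE 0.0663, adjusted p = 7.71e-06), which left 56.3% of the scrambled signal. Its partner Psmd14 read 10.92, 11.00 and 10.96 on the shRNA arrays, against 10.96, 10.69 and 10.84 on the scrambled arrays, and these groups overlapped. Psmd2, the other scaffold of the base, was below on all shRNA arrays but did not pass (−0.13, adjusted p = 0.165). After quantile normalization over all arrays Psmd2 passed at −0.199 (adjusted p = 0.0175). Of the 22 genes that rose, 8 did so by 1.5-fold or more.

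**Figure D2:**
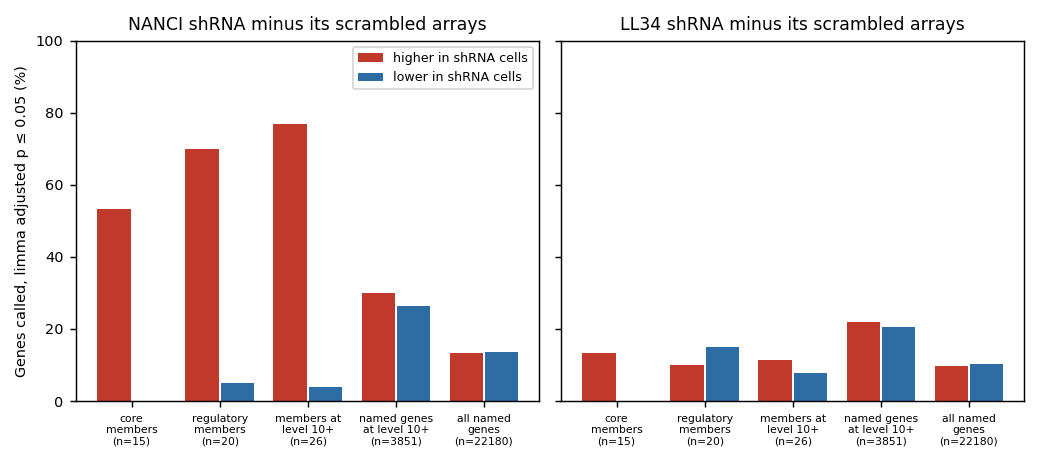
Share of genes past the limma threshold (percent) in groups of proteasome genes and in all named genes, after NANCI knockdown (left) and LL34 knockdown (right). Red bars are genes higher and blue bars genes lower in shRNA cells. After NANCI knockdown 53.3% of core and 70% of regulatory genes were higher, beside 13.2% of all named genes, and after LL34 knockdown these shares were 13.3%, 10% and 9.77%.

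After LL34 knockdown 4 of the 35 genes rose (11.4%, beside 9.7% of all probe sets) and 3 fell (8.57%, beside 6.66%). The shares among bright members, 11.5% higher and 7.69% lower, were smaller than among bright genes (22% and 20.5%). The median change was 0.08, beside −0.02 for all named genes. The median member stood 0.07, 0.03 and 0.09 above the scrambled mean on the 3 LL34 shRNA arrays, and 0.03, 0.00 and −0.03 from it on the scrambled arrays. All LL34 shRNA arrays lay above all scrambled arrays in 15 genes (18.8% of probe sets) and below in 5 (12.3% of probe sets). In this set 2 members had exactly equal values on a pair of shRNA arrays and 1 member on a pair of scrambled arrays.

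Psmd8, a lid subunit, changed most after LL34 knockdown, and in the direction opposite to its change after NANCI knockdown. It read 11.30, 11.31 and 11.30 on the LL34 shRNA arrays, against 11.98, 12.02 and 11.96 on the scrambled arrays. The shRNA arrays differed among themselves far less than the groups did, and Psmd8 measured −0.68 (limma SE 0.0604, adjusted p = 3.06e-05), which is 62.3% of the scrambled signal. In the NANCI set Psmd8 read 12.74, 12.76 and 12.73 on the shRNA arrays, against 12.19, 11.96 and 12.08 on the scrambled arrays. It rose there by 0.67 (SE 0.0604, adjusted p = 1.66e-05). Psmc5 read 9.68, 9.71 and 9.77 on the LL34 shRNA arrays, against 9.96, 9.98 and 9.85 on the scrambled arrays, and fell by 0.21 (adjusted p = 0.0403). The base scaffold gene Psmd1 fell by 0.22 (adjusted p = 0.0436).

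The Psmc5 and Psmd1 calls were fragile. Psmd1 lost its call when any 1 array of the LL34 set, any 1 NANCI scrambled array or NANCI_shRNA replicate 1 was left out (adjusted p from 0.0523 to 0.119). Psmc5 lost its call when any 1 LL34 shRNA array, LL34_control replicate 1 or 2, NANCI_control replicate 1 or 3 or NANCI_shRNA replicate 2 was left out (adjusted p from 0.0539 to 0.139). Their LL34 changes against all 6 scrambled arrays were 0.0046 (Psmc5) and −0.0355 (Psmd1), neither past the threshold. Psmd8 passed in all of these fits.

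The risers after LL34 knockdown came from each ring and from the regulatory particle. Psmb2, a beta subunit without an active site, read 12.06, 12.08 and 12.18 on the LL34 shRNA arrays, against 11.83, 11.76 and 11.74 on the scrambled arrays (0.33, SE 0.0624, limma adjusted p = 0.00398). Psma3, an alpha subunit, read 11.68, 11.78 and 11.82, against 11.45, 11.44 and 11.48 on the scrambled arrays (0.30, SE 0.06, adjusted p = 0.00523). In both genes the groups stood apart. Psmd9, the base chaperone, read 9.44, 9.24 and 9.55 on the shRNA arrays, against 9.03, 8.86 and 9.09 on the scrambled arrays (0.42, SE 0.0882, adjusted p = 0.00726). Psmd3, of the lid, read 10.74, 10.76 and 10.83, against 10.50, 10.57 and 10.52 on the scrambled arrays (0.25, SE 0.0525, adjusted p = 0.00765), and was the 1 gene higher after both knockdowns. All 4 genes were lower in the LL34 scrambled arrays than in the NANCI scrambled arrays, with differences of −0.48 for Psmb2, −0.29 for Psma3, −0.68 for Psmd9 and −0.35 for Psmd3. Against all 6 scrambled arrays they measured 0.0916, 0.156, 0.0794 and 0.0756, none past the threshold (adjusted p from 0.281 to 0.778). The catalytic genes Psmb5, Psmb6 and Psmb7 measured 0.03, 0.01 and 0.01.

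The sets had no array in common, so the difference between the changes was tested directly, as NANCI change minus LL34 change. It passed in 20 of 35 genes, 18 with the higher change after NANCI knockdown and 2 with the lower, beside 8.63% and 10.2% of all probe sets. Among bright members these shares were 61.5% and 3.85%, beside 25.7% and 26% of bright genes. The median difference was 0.28, beside 0.03 for all named genes. Of the 22 genes that rose after NANCI knockdown, 17 also had a called difference. The difference contains the NANCI change, so these calls are not independent of each other. Psmd8 differed most (1.35, SE 0.0854, limma adjusted p = 2.57e-06), followed by Psma6 (1.14, SE 0.0835, adjusted p = 6.03e-06), Psma1 (1.03, SE 0.132, adjusted p = 0.000247) and Psmd7 (−0.96, SE 0.0937, adjusted p = 3.96e-05). The alpha genes Psma6 and Psma1 read 10.84, 10.88 and 10.87, and 11.31, 11.17 and 11.22, on the LL34 shRNA arrays, against 10.97, 11.02 and 10.94, and 11.51, 11.29 and 11.16, on their scrambled arrays. For Psmd7 these values were 11.92, 11.88 and 11.88 on the LL34 shRNA arrays and 11.85, 11.76 and 11.68 on the scrambled arrays. None of the 3 passed after LL34 knockdown, at −0.12, −0.09 and 0.13. The catalytic genes differed by 0.51 for Psmb7, 0.50 for Psmb6 and 0.28 for Psmb5. For Psmb5 the shRNA means were 12.87 (NANCI) and 12.98 (LL34), and the scrambled means were 12.56 and 12.95. Psmd1 rose after NANCI knockdown and fell after LL34 knockdown, as Psmd8 did, and 8 genes passed after neither.

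**Figure D3:**
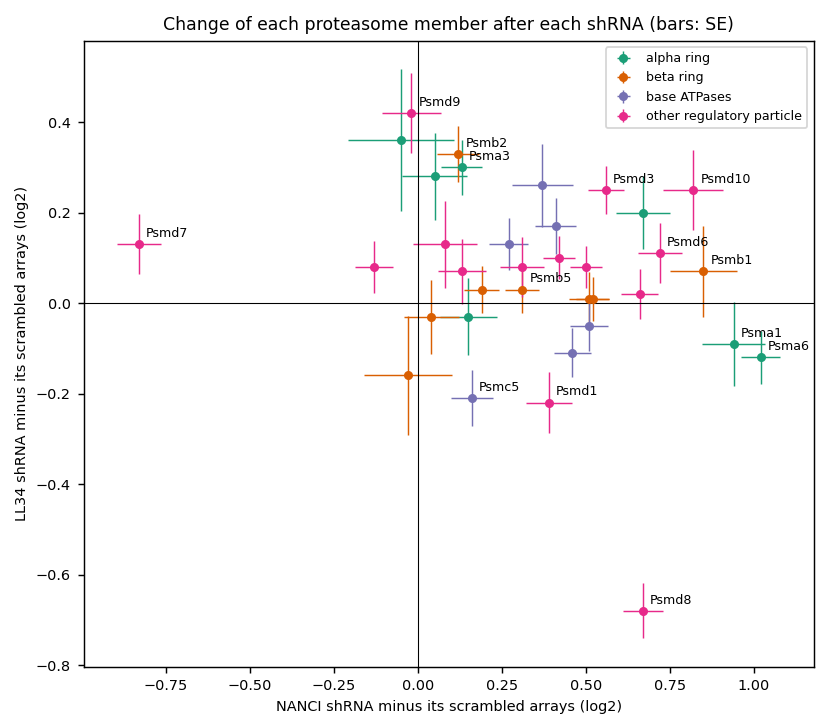
Change of each proteasome gene after NANCI knockdown (horizontal) against its change after LL34 knockdown (vertical), both in log2 units with bars of 1 SE, coloured by class, with some genes named. Most points lie right of 0 and close to the horizontal axis. Psmd8 lies far below that axis at 0.67 and −0.68, and Psmd7 far to the left at −0.83 and 0.13.

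The scrambled groups themselves stood apart. In the LL34 scrambled arrays minus the NANCI scrambled arrays 13 members were higher and 12 lower, beside 8.55% and 46% of all probe sets, and the median of all named genes was −0.23. With arrays centred on their medians the members split 19 and 3, and 14 and 9 under quantile normalization of the 12 arrays, so this split depended on scaling. Psma6 and Psma1, which differed strongly between the knockdowns, were 0.40 and 0.39 higher in the LL34 scrambled arrays. This gap between the scrambled groups enters their differences by construction. On the deposited scale the shRNA means were 11.60 (NANCI) and 10.86 (LL34) for Psma6, and 11.87 and 11.23 for Psma1.

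Genes that regulate the proteasome were read beside the subunits. Nfe2l1 read 10.72, 10.73 and 10.71 on the NANCI shRNA arrays, against 11.35, 11.40 and 11.34 on the scrambled arrays. In the LL34 set it read 11.71, 11.76 and 11.76 on the shRNA arrays, against 11.18, 11.30 and 11.24 on the scrambled arrays. The RNA of this regulator thus lay below the scrambled level on every NANCI shRNA array and above it on every LL34 shRNA array. It fell by 0.64 after NANCI knockdown (limma SE 0.051, adjusted p = 7.41e-06) and rose by 0.50 after LL34 knockdown (SE 0.051, adjusted p = 7.71e-05), a difference of −1.14. RNA says nothing of the processing and release of this protein.

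Ngly1, the glycanase that acts on the Nfe2l1 protein, read 9.17, 9.34 and 9.29 on the NANCI shRNA arrays, against 9.99, 9.63 and 9.95 on the scrambled arrays. Ngly1 fell by 0.59 (SE 0.106, limma adjusted p = 0.00196). In the LL34 set Ngly1 read 9.97, 10.10 and 10.01, against 9.74, 9.75 and 9.46 on the scrambled arrays (0.38, adjusted p = 0.0324), a call lost without any 1 LL34 shRNA array or LL34_control replicate 3 (adjusted p from 0.0645 to 0.108) and against all 6 scrambled arrays (0.135). Nfya, a subunit of NF-Y, fell by 0.50 after NANCI knockdown and rose by 0.35 after LL34 knockdown. Nfe2l2, which encodes the oxidative stress factor NRF2, measured −0.14 after NANCI knockdown (adjusted p = 0.101) and fell by 0.53 after LL34 knockdown (adjusted p = 7.94e-05). Nfe2l3, a relative of Nfe2l1, and Bach1, a repressor at antioxidant response elements, fell by 0.84 and 0.72 after LL34 knockdown. They measured 0.04 and −0.06 after NANCI knockdown. Bach1 was at −0.465 against all 6 scrambled arrays (adjusted p = 0.0576). Of the 12 measured regulators 2 rose and 3 fell after NANCI knockdown, 16.7% and 25%, beside 13.2% and 13.6% of all named genes and 30% and 26.5% of bright genes. After LL34 knockdown 5 rose and 4 fell, 41.7% and 33.3%, beside 9.77% and 10.3% of all named genes and 22% and 20.5% of bright genes. The medians were −0.03 and 0.00, beside 0.00 and −0.02 for all named genes.

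**Figure D4:**
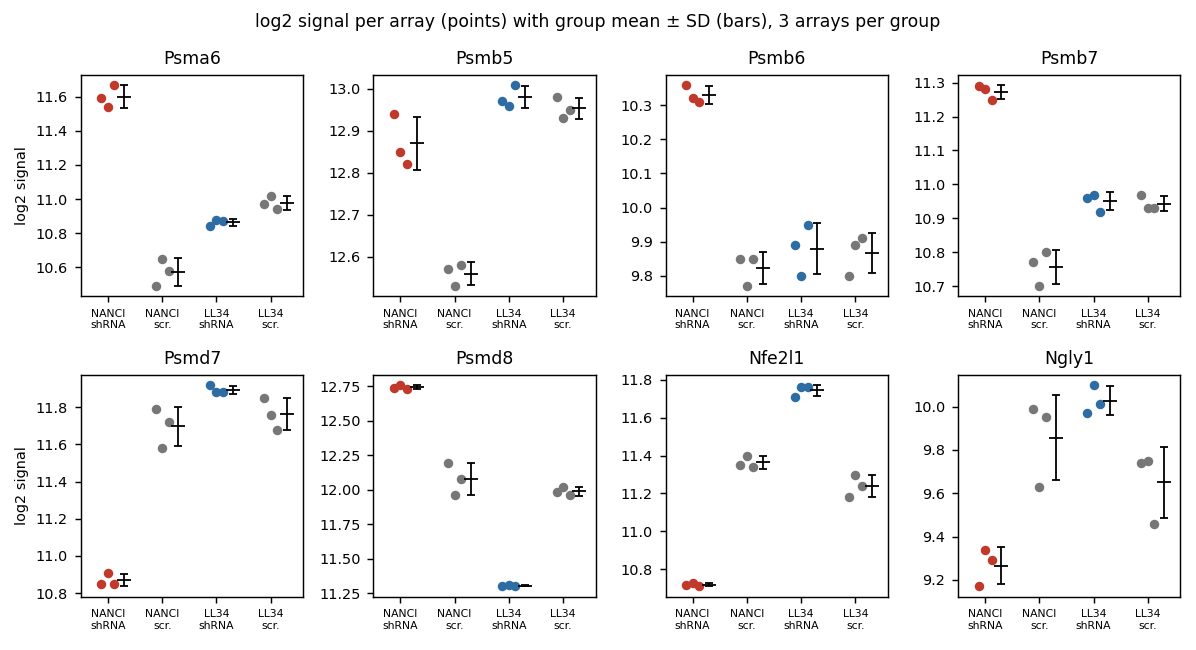
Log2 signal on each array for 6 proteasome genes, the regulator gene Nfe2l1 and the glycanase gene Ngly1. Dots are arrays in the order NANCI shRNA, NANCI scrambled, LL34 shRNA and LL34 scrambled, bars are the mean ± SD of 3 arrays, and vertical axes differ between panels and do not start at 0. Psma6, Psmb5, Psmb6 and Psmb7 stand above the scrambled arrays in the NANCI set, Psmd8 stands above in the NANCI set and below in the LL34 set, and Nfe2l1 and Ngly1 show the opposite pattern to Psmd8.

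Enzymes and subunits with other names that bind the regulatory particle rose in 5 of 9 measured cases after NANCI knockdown, with none lower and a median of 0.25. This is 55.6%, beside 13.2% of all named genes and 30% of bright genes. Txnl1, a thioredoxin-like protein bound to the regulatory particle, rose by 0.85 (SE 0.0942, limma adjusted p = 6.72e-05). The deubiquitinase genes Usp14 and Uchl5 rose by 0.58 and 0.43, and Zfand2a, a zinc finger protein induced by arsenite, by 0.40. Sem1, a small lid subunit, rose by 0.25 (adjusted p = 0.0283), a call lost without any 1 NANCI scrambled array or NANCI_shRNA replicate 2 (adjusted p from 0.0524 to 0.11) and with a replicate block (0.11). After NANCI knockdown Uchl5 measured 0.207 (adjusted p = 0.317) and Zfand2a 0.71 (adjusted p = 0.0132) against all 6 scrambled arrays. After LL34 knockdown Zfand2a rose by 0.47, while Zfand5 fell by 0.46 and Ecpas, a proteasome scaffold, by 0.30. None of these 3 passed against all 6 scrambled arrays (adjusted p from 0.456 to 0.595). The Ecpas call was also lost without LL34_control replicate 1 or 2 or LL34_shRNA replicate 1 or 3 (adjusted p from 0.0519 to 0.0638).

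Of the immunoproteasome and activator genes 3 of 8 rose after NANCI knockdown (37.5%, beside 13.2% of all named genes and 30% of bright genes). After LL34 knockdown 1 rose and 3 fell. These are 12.5% and 37.5%, beside 9.77% and 10.3% of all named genes and 22% and 20.5% of bright genes. Psme4, a large nuclear activator of the core, rose by 0.55 after NANCI knockdown (adjusted p = 8.28e-05) and measured −0.04 after LL34 knockdown. The NANCI changes against all 6 scrambled arrays were 0.268 for Psme4 (adjusted p = 0.258) and 0.168 for Psmb10 (adjusted p = 0.214). Psmb10, an inducible trypsin-like subunit, rose by 0.27 after NANCI knockdown and fell by 0.49 after LL34 knockdown, and the activator gene Psme1 rose by 0.28 and fell by 0.30. These NANCI calls were lost without single arrays: Psmb10 without NANCI_control replicate 1 or 3 or NANCI_shRNA replicate 1 (adjusted p from 0.0512 to 0.062), and Psme1 without NANCI_control replicate 2 or 3 or NANCI_shRNA replicate 1 or 2 (from 0.0561 to 0.0754). The Psme1 fall after LL34 knockdown was lost without LL34_control replicate 1 (0.0508) or LL34_shRNA replicate 2 (0.062). Psmf1, described as an inhibitor, rose by 0.34 after LL34 knockdown, and the inducible gene Psmb9 fell by 0.25. After LL34 knockdown Psmf1 measured 0.129 (adjusted p = 0.482) and Psmb9 −0.681 (adjusted p = 0.0823) against all 6 scrambled arrays. Psmb9 lost its call without any 1 LL34 array, NANCI_control replicate 2 or NANCI_shRNA replicate 2 (adjusted p from 0.0539 to 0.136).

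Assembly chaperones of the core rose in 1 of 5 measured cases after NANCI knockdown, Psmg4 by 0.48, and in 2 of 5 after LL34 knockdown, Pomp by 0.34 and Psmg1 by 0.44. These are 20% and 40%, beside 13.2% and 9.77% of all named genes and 30% and 22% of bright genes. Against all 6 scrambled arrays Psmg1 measured 0.146 (adjusted p = 0.556). None of the 5 fell after either knockdown. Of 6 measured ubiquitin-activating and shuttle genes, Ubqln1, which carries ubiquitinated proteins to the proteasome, rose by 0.28 after NANCI knockdown, and Uba6, a ubiquitin-activating enzyme, fell by 0.37 after LL34 knockdown. Each is 16.7% of the list, beside 13.2% of all named genes higher (NANCI) and 10.3% lower (LL34), and 30% and 20.5% of bright genes. Set against all 6 scrambled arrays, Ubqln1 measured 0.574 after NANCI knockdown (adjusted p = 0.031) and Uba6 −0.299 after LL34 knockdown (adjusted p = 0.0534). The ATPase gene Vcp, whose product extracts ubiquitinated proteins, and its 9 cofactors showed 2 rises and 3 falls after NANCI knockdown, and 3 rises and no fall after LL34 knockdown. The NANCI shares were 20% and 30%, beside 13.2% and 13.6% of all named genes and 30% and 26.5% of bright genes. The LL34 shares were 30% and 0%, beside 9.77% and 10.3% of all named genes and 22% and 20.5% of bright genes. Nsfl1c rose by 0.84 (SE 0.0723, limma adjusted p = 1.19e-05) and Ubxn4 by 0.25 after NANCI knockdown, the Ubxn4 call lost without NANCI_control replicate 1 (0.0529) or NANCI_shRNA replicate 3 (0.0584). Ubxn1 and Ufd1 fell by 0.77 and 0.29 after NANCI knockdown and rose by 0.40 and 0.37 after LL34 knockdown. Against all 6 scrambled arrays no one of these 4 Ubxn1 and Ufd1 calls held, and after LL34 knockdown Ubxn1 turned to −0.103 (adjusted p = 0.793).

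Markers of cell types moved beside these changes. Of 8 distal lung epithelial markers 4 fell and none rose after NANCI knockdown, with array means of 8.88 to 9.0 on the NANCI shRNA arrays and 9.49 to 9.58 on the scrambled arrays. The 4, among them Nkx2-1, the neighbour of NANCI, are 50%, beside 13.6% of all named genes and 26.5% of bright genes. After LL34 knockdown 2 rose and 3 fell, with 9.23 to 9.32 on the shRNA arrays and 9.28 to 9.57 on the scrambled arrays. These are 25% and 37.5%, beside 9.77% and 10.3% of all named genes and 22% and 20.5% of bright genes. None of 5 mesenchymal markers passed in either set. Endothelial markers read 6.62 to 6.70 on NANCI shRNA arrays and 6.89 to 6.97 on scrambled arrays, with Tek the 1 of 4 that passed (−1.05). In the LL34 set they read 6.11 to 6.15 on shRNA arrays and 6.44 to 6.5 on scrambled arrays, and Tek was again the 1 that passed (−1.26, limma adjusted p = 0.000715). Leukocyte markers read 6.61 to 6.68 on NANCI shRNA arrays and 6.38 to 6.5 on scrambled arrays, with Cd68 the 1 of 4 that passed (0.88), while the pan-leukocyte gene Ptprc stood at a mean of 5.26 over the 12 arrays, below every array median. In the LL34 set leukocyte markers read 6.21 to 6.29 on shRNA arrays and 6.32 to 6.37 on scrambled arrays, and none passed. A count of 1 of 4 is 25%. Beside it, 13.2% of all named genes were higher and 13.6% lower after NANCI knockdown, and 10.3% were lower after LL34 knockdown. The part of the marker changes in the proteasome changes was not tested. In RNA pooled from whole cultures, fewer cells of a kind and less RNA per cell cannot be told apart.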

How the data were processed

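RNA of MLE12 cells was measured on 12 Affymetrix arrays. The deposited unit is log2 signal, 1 value per probe set and array; the submitters' processing notes name oligo, RMA and limma. The order of steps, versions, annotation and build (not given in the sources used here) may affect levels. RMA scales arrays to each other, so changes are relative to other RNAs, and the array number limits the precision. Array medians differed between the sets (6.84 to 6.88 and 6.54 to 6.61), so the sets may have been normalized separately. Comparisons across the sets rest on the deposited scale. Probe sets were named through the platform annotation. Psma4, measured only by probe sets that carry a second symbol, is no member.

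The fit was limma 3.58.1 in R 4.3.3 with 4 group means over 12 arrays (8 residual and 2.84 prior degrees of freedom), adjusted over 41345 probe sets at 0.05, and checked on simulated data. The R package data.table (1.17.8) read and wrote the data of the fit. Tables and figures used Python 3.11.15, pandas 2.3.3 and matplotlib 3.10.9. Alternatives were the 6 arrays of a set, quantile normalization or median centring over all arrays, a replicate block, an intensity trend, bright probe sets, the mean of a gene's probe sets, all 6 scrambled arrays as 1 control group, and each array left out.

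Array values were given for up to 3 called members per class and knockdown with the largest change, up to 4 with the largest called difference, Psmb5, Psmb6, Psmb7 and members that moved against their class. Up to 4 called genes per list and knockdown with the smallest p, Nfe2l1 and Nfe2l2 were named, as were further genes plotted or compared with these. The members and lists were chosen with earlier results of these data known.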

Additional observations from a re-analysis of the deposited data

Results flagged for a closer look

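The change after NANCI knockdown differed from the change after LL34 knockdown in 20 proteasome genes by the test of the difference itself (limma, NANCI change minus LL34 change, log2). Among alpha genes the difference was 1.14 for Psma6, 1.03 for Psma1 and 0.47 for Psma2. Among beta genes it was 0.78 for Psmb1, 0.51 for Psmb7, 0.50 for Psmb6 and 0.28 for Psmb5. The ATPase genes Psmc4, Psmc1 and Psmc5 differed by 0.57, 0.56 and 0.37. For Psmb5 and Psmc5 the NANCI shRNA means (12.87 and 9.66) were not above the LL34 shRNA means (12.98 and 9.72). Their LL34 scrambled arrays read 0.39 and 0.43 higher than their NANCI scrambled arrays. Among the Psmd genes Psmd8 differed by 1.35, Psmd5 by 0.65, Psmd1 by 0.61, Psmd6 by 0.61 and the chaperone gene Psmd10 by 0.58. Psmd12, Psmd11 and Psmd3 differed by 0.43, 0.32 and 0.31. The difference was negative for Psmd7 (−0.96) and Psmd9 (−0.44). Psmd9 lost this call without LL34_control replicate 2, LL34_shRNA replicate 1 or 3, NANCI_control replicate 1 or 3 or NANCI_shRNA replicate 2 or 3, with adjusted p from 0.053 to 0.0758. It was also lost with arrays centred on their medians (−0.412, adjusted p = 0.0598) and under quantile normalization of the 12 arrays (−0.394, adjusted p = 0.0662). The Psmd9 shRNA mean was higher in the NANCI set (9.65) than in the LL34 set (9.41), and its scrambled groups differed by −0.68 (LL34 minus NANCI). The groups are of 3 arrays, so no single array was tested as an outlier.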

How the results depend on the processing

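After NANCI knockdown 19 to 23 of the 35 members passed under every alternative (23 in the reported fit), and 21 to 23 with 1 array left out. For the difference between the changes the counts were 17 to 22 (reported 20), and 19 to 21 with 1 array left out. After LL34 knockdown they were 5 to 10 (reported 7) and 5 to 8 with 1 array left out, except against all 6 scrambled arrays as 1 control group, where 2 members passed and 4309 probe sets were called, in place of 6766. That alternative brings the gap between the scrambled groups into the changes. Under it Psmc5 after LL34 knockdown turned to 0.0046 (adjusted p = 0.981) and Ubxn1 to −0.103. The split of all probe sets after LL34 knockdown, 4011 higher and 2755 lower, was 3307 and 3463 after quantile normalization and 3062 and 3035 with centred arrays. The split between the scrambled groups, 3533 and 19028, was 7514 and 8684, and 11653 and 6344, under these scalings. With the replicate number as a block, 21, 5 and 17 members passed for NANCI, LL34 and the difference. For the difference Psmb5 (0.075), Psmc5 (0.0552) and Psmd3 (0.0662) lost their calls. Deviations of same-numbered arrays from their group means correlated between −0.125 and 0.045 over probe sets, so no strong effect shared by them was seen. This cannot tell whether same-numbered arrays were infected or processed together. Psma5, Psma8 and Psmb11 fell below the brightness filter, and signal this low limits what can be seen in them.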

Other observations

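Psma4, an alpha subunit gene, was measured by a pair of probe sets that also carry another gene symbol, so its RNA cannot be told apart from that of the other gene. The brighter of these rose by 0.25 after NANCI knockdown (limma adjusted p = 0.0347) and measured 0.08 after LL34 knockdown, and the dimmer measured 0.04 and 0.00. The second Psmc2 probe set, at a mean level of 7.33, rose by 0.43 after NANCI knockdown, and its LL34 scrambled minus NANCI scrambled arrays measured −1.76, beside −0.49 for the brighter Psmc2 probe set. A probe set listed for both Armc9 and Psmd1 measured −0.06 after NANCI knockdown (adjusted p = 0.651), where the Psmd1 probe set rose by 0.39.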
